A study of Mus musculus with 8 samples.

Results

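Wnt/beta-catenin signalling in brain endothelium was followed through 10 genes, found by their symbols in the tables of 8 libraries. They were 4 receptor genes (Fzd4, Fzd6, Lrp6 and Tspan12), the transducer Ctnnb1, the nuclear factors Lef1 and Tcf7, and 3 pathway targets (Axin2, Nkd1 and Apcdd1). All 10 were among the 24394 symbols shared by the tables and among the 8706 genes with enough signal to be tested. RNA came from brain endothelial cells isolated by flow cytometry at postnatal day 8 from C57BL/6J mice. In the 4 YT-ECKO libraries the mice carried floxed Yap and Taz alleles and VE-cadherin-CreERT2, a tamoxifen-inducible Cre recombinase driven by the endothelial Cdh5 promoter. The 4 WT libraries were labelled wild type, and the labels used here do not mention a Cre driver or tamoxifen for them, so that Cre, any treatment and the deletion cannot be told apart. Nothing in the labels says that each library came from a separate mouse, and p-values therefore measure the spread between these libraries.

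Wnt ligands bind a Frizzled receptor together with the co-receptor LRP5 or LRP6. The bound receptors hold back the complex that degrades beta-catenin, and beta-catenin then enters the nucleus and activates genes with TCF/LEF factors. In the developing brain, endothelial cells receive Wnt7a and Wnt7b through a complex with Gpr124 and Reck, and norrin through Frizzled-4 and tetraspanin-12, and both inputs are known for vessel ingrowth and for barrier formation. Axin2, Nkd1 and Apcdd1 are induced by the pathway and restrain it in turn.

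Values are given as scaled reads, the deposited log2 values returned to the linear scale, in libraries that each summed to 10.3 to 11 M scaled reads. From the step between low values, the sequencing depth was estimated as 6.66 to 13.6 M reads in YT-ECKO libraries and 7.45 to 16.9 M in WT libraries, with 7550 to 8777 genes above 0 in YT-ECKO and 8634 to 9737 in WT. Of the tested genes, 44.3% were listed at 0 in 1 library or more. All 10 endothelial markers were above 0 in every library and summed to 78057 to 100311 scaled reads in YT-ECKO, against 77997 to 90639 in WT. The deleted gene Wwtr1, which encodes TAZ, measured 348, 2608, 1261 and 1124 scaled reads in YT-ECKO libraries 1 to 4, against 8220.4, 5906, 6756 and 5649.9 in WT libraries 1 to 4. Yap1 measured 9.29, 605, 293 and 402 scaled reads in YT-ECKO libraries 1 to 4, against 2833, 1726, 1409 and 1887 in WT libraries 1 to 4. Both were lower in every YT-ECKO library than in any WT library, with an adjusted p (limma) of 0.0113 for Wwtr1 and 0.175 for Yap1. Wwtr1 lost its call under 11 of 22 alternative settings, and reads outside the floxed exons count towards both genes.

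To show the DNA at the start of Lef1, the member with the smallest p, the 250 bases before its RefSeq start sites 1 and 4 are printed, with the window of Tspan12, the receptor gene whose window also held a match. RefSeq sequences were found for 7 of the 10 members, in 12 windows. The letters searched, on both strands, were CTTTGA or CTTTGT as a TCF/LEF core and GGAATG as a TEAD core, TEAD factors being the DNA-binding partners of YAP and TAZ. Matches are in capitals and all lay on the strand opposite to the one printed.
Lef1, start 1, chr3:131110047-131110296, plus strand, GRCm38.p6: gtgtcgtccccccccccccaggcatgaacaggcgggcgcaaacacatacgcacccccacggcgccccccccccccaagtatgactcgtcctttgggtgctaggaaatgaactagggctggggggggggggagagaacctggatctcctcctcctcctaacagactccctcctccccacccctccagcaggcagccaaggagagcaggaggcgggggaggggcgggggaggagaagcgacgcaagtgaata
Lef1, start 4, chr3:131156044-131156293, plus strand, GRCm38.p6: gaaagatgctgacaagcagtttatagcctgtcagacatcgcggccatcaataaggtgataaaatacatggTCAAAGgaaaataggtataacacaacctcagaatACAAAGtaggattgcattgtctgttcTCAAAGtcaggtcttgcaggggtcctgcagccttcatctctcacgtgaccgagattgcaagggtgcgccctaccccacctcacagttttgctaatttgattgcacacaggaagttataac
Tspan12, chr6:21852534-21852783, minus strand, GRCm38.p6: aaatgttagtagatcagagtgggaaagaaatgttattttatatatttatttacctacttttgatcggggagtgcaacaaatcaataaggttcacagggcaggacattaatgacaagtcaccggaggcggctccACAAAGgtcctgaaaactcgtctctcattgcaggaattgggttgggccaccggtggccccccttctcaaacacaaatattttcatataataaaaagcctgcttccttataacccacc
The window of Lef1 start 4 lies inside the annotated gene, outside its exons. It held 3 matches to the TCF/LEF core, at 180 to 175, 146 to 141 and 120 to 115 bases before the start. Tspan12 held 1 match, at 117 to 112 bases before its start. These 2 windows were the only ones of the 12 with such a match, against 27.6% of 32851 windows of all genes. The TEAD core was found in 0 of the 12 windows, against 12.6% of all windows. A match describes letters and not a bound site, and the deposited values do not separate the Lef1 starts.

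Lef1 had the smallest p among the 10 members and a higher mean in YT-ECKO, without passing the adjusted threshold. Lef1 (chromosome 3, 131110471 to 131224356, plus strand, GRCm38) encodes a TCF/LEF factor that recruits beta-catenin to DNA, and the gene is itself a known target of the pathway. It measured 4640.3, 3529, 3243 and 2447 scaled reads in YT-ECKO libraries 1 to 4, against 3254, 1229.6, 701 and 937 in WT libraries 1 to 4. The groups overlapped through WT 1, which lay above YT-ECKO 3 and YT-ECKO 4, while the other 3 WT libraries lay below all 4 YT-ECKO libraries. The means were 3465 ± 907 scaled reads in YT-ECKO and 1531 ± 1169 in WT (SD, n = 4 each), a ratio of 2.26. Differences are on a log2 scale after a constant, the pseudocount of 2 to the power of 7, was added to the scaled reads, and for Lef1 the difference was 1.31 ± 0.41 (SE), with a 95% interval of 0.45 to 2.16. Its limma p was 0.00409 before adjustment and 0.636 after adjustment over all 8706 genes, so Lef1 was not called.

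The values of Lef1 rested on 2124 to 4239 implied reads per YT-ECKO library and 812 to 5330 per WT library. Without WT 1 the log2 difference was 1.72 ± 0.42 (SE), with an adjusted p (limma) of 0.298, and the groups no longer overlapped. WT 1 was also the library with the most implied reads (16.9 M), the lowest share of the ribosomal RNA precursor Rn45s (8.39%, against 8.97% to 14.8% in YT-ECKO and 11.8% to 13.5% in the other WT libraries) and the lowest erythroid marker sum (13236 scaled reads). The part of these in its Lef1 value was not tested. In RNA from sorted cells as a whole, more cells with Lef1 and more Lef1 RNA per cell cannot be told apart.

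Lef1 is also known from T cells and from some neurons, whose markers were therefore summed per library. Of 5 T cell markers, 4 (Cd3e, Cd3g, Cd4 and Cd8a) were listed at 0 in all 8 libraries, and Cd3d stood at 1.47 scaled reads in YT-ECKO 1 and at 0 elsewhere. Of 6 neuron markers, 4 were above 0 in some library, Syt1 and Dcx being at 0 in all 8, and the sum ranged from 0 to 1896 scaled reads in YT-ECKO, against 5.97 to 187 in WT. By library the neuron sum was 1896, 0, 17.6 and 879 scaled reads in YT-ECKO libraries 1 to 4, against 103, 187, 15.6 and 5.97 in WT libraries 1 to 4. YT-ECKO 1 had both the highest neuron sum and the highest Lef1 value, and YT-ECKO 4 had the next highest neuron sum and the lowest Lef1 value of its group. Single markers made up these sums. Rbfox3 measured 1375 scaled reads in YT-ECKO 1 and 489 in YT-ECKO 4. Stmn2 measured 520 in YT-ECKO 1 and 0 in YT-ECKO 4, and Snap25 0 in YT-ECKO 1 and 388 in YT-ECKO 4. Tubb3 stood at 1.61 and 1.17. The part of neuronal RNA in the Lef1 values was not tested. Without YT-ECKO 1 and YT-ECKO 4, left out together after the neuron sums were seen, the log2 difference of Lef1 was 1.31 ± 0.50 (SE; adjusted p = 0.660 by limma).

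**Figure D1:**
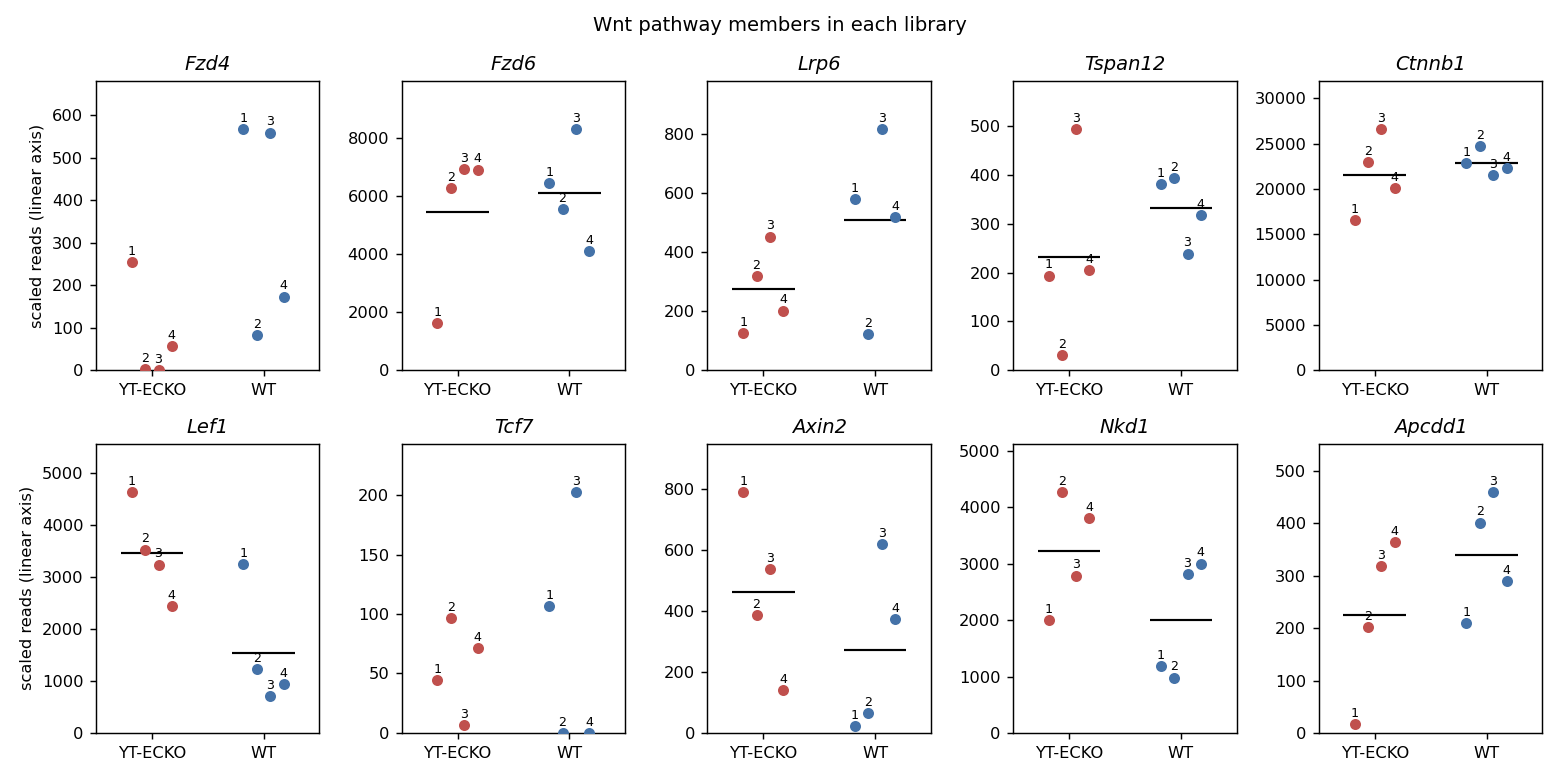
Scaled reads of the 10 members in each library on linear axes that start at 0, with YT-ECKO (red) left of WT (blue), replicate numbers beside the points and a line at the group mean where no library was at 0. For Lef1 the 4 YT-ECKO points lie between 2447 and 4640.3 scaled reads, and WT 1, at 3254, is the WT point among them.

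Tcf7 (chromosome 11, 52252371 to 52283014, minus strand), which encodes the related factor TCF1, was close to the limit of detection. It measured 44.7, 96.6, 6.88 and 71.3 scaled reads in YT-ECKO libraries 1 to 4, against 107, 0, 203 and 0 in WT libraries 1 to 4. Its log2 difference of -0.07 ± 0.41 (SE) turned positive under 7 of 20 alternative settings, so no direction is given. The other family members, named here after their values were seen, were Tcf7l1, with 673 to 1908 scaled reads in YT-ECKO, against 720.1 to 2172 in WT, and Tcf7l2, with 1146 to 5039 in YT-ECKO, against 319 to 11804 in WT. Neither passed the test, and Tcf7l2 spanned its whole range within the WT group. Of these 4 factors, only Lef1 had an unadjusted limma p under 0.05.

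Among the feedback targets, Nkd1 and Axin2 had higher means in YT-ECKO and Apcdd1 a lower one, and none was called. Nkd1 (chromosome 8, 88521354 to 88594884, plus strand) encodes an inhibitor that binds Dishevelled. It measured 2004, 4276, 2792 and 3811 scaled reads in YT-ECKO libraries 1 to 4, against 1187, 983, 2817 and 3003 in WT libraries 1 to 4. WT 1 and WT 2 lay below all YT-ECKO libraries, and WT 3 and WT 4 lay among them. The means were 3221 ± 1021 in YT-ECKO and 1997 ± 1059.6 in WT (SD, n = 4 each). The log2 difference of Nkd1 was 0.75 ± 0.40 (SE; adjusted p = 0.928 by limma).

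Axin2 (chromosome 11, 108920349 to 108950783, plus strand) encodes a scaffold of the beta-catenin destruction complex and is a widely used readout of the pathway. It measured 791, 386, 537 and 141 scaled reads in YT-ECKO libraries 1 to 4, against 23.3, 66.0, 620 and 374 in WT libraries 1 to 4. The libraries of both groups were spread over the same range apart from the low values of WT 1 and WT 2, and the log2 difference was 0.74 ± 0.63 (SE; adjusted p = 0.990 by limma). WT 1, the WT library with the highest Lef1 value, had the lowest Axin2 value of all 8 libraries.

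Apcdd1 (chromosome 18, 62922231 to 62961179, plus strand) encodes a membrane protein that inhibits Wnt signalling at the cell surface. It measured 17.0, 202, 318 and 364 scaled reads in YT-ECKO libraries 1 to 4, against 210.1, 401, 460 and 289 in WT libraries 1 to 4. YT-ECKO 1 was far below the others, at 11 implied reads, and the other 3 YT-ECKO libraries lay within or just below the WT range. The log2 difference was -0.52 ± 0.58 (SE; adjusted p = 0.990 by limma).

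All 4 receptor genes had lower values in YT-ECKO in the fit over all libraries, with overlap in every case and no call, and Fzd6 had a higher value without YT-ECKO 1. Fzd4 (chromosome 7, 89404355 to 89413134, plus strand) encodes the receptor of norrin. It measured 254, 2.65, 0 and 56.3 scaled reads in YT-ECKO libraries 1 to 4, against 567, 83.2, 560 and 173 in WT libraries 1 to 4. YT-ECKO 2, YT-ECKO 3 and YT-ECKO 4, at 3, 0 and 49 implied reads, lay below every WT library, and YT-ECKO 1 lay above 2 of them. The log2 difference of Fzd4 was -1.17 ± 0.59 (SE), with a 95% interval of -2.39 to 0.05 (adjusted p = 0.928 by limma).

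Tspan12 (chromosome 6, 21771395 to 21852515, minus strand) encodes the tetraspanin that enhances norrin signalling through Frizzled-4. It measured 194, 31.0, 494 and 206 scaled reads in YT-ECKO libraries 1 to 4, against 381, 394, 239 and 318 in WT libraries 1 to 4. YT-ECKO 3 held the highest value of all 8 libraries and the other 3 YT-ECKO libraries lay below every WT library. Its log2 difference was -0.51 ± 0.58 (SE; adjusted p = 0.990 by limma).

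Lrp6 (chromosome 6, 134446476 to 134566965, minus strand) encodes the co-receptor that Wnt and norrin share. It measured 126, 319, 453 and 202 scaled reads in YT-ECKO libraries 1 to 4, against 580.4, 123, 817 and 519 in WT libraries 1 to 4. WT 2 held the lowest value and the other 3 WT libraries lay above all YT-ECKO libraries, with a log2 difference of -0.58 ± 0.58 (SE; adjusted p = 0.990 by limma).

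Fzd6 (chromosome 15, 39006034 to 39038188, plus strand) encodes a Frizzled known also for planar polarity. It measured 1637, 6286, 6946 and 6922 scaled reads in YT-ECKO libraries 1 to 4, against 6454, 5568, 8318 and 4105 in WT libraries 1 to 4. YT-ECKO 1 alone lay below the WT range. The log2 difference was -0.31 ± 0.39 (SE; adjusted p = 0.990 by limma), and it was 0.18 ± 0.30 without YT-ECKO 1.

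Ctnnb1 (chromosome 9, 120929216 to 120960507, plus strand) encodes beta-catenin, which carries the signal to the nucleus and also links cadherins to actin at junctions. Its difference had the smallest standard error of the members. Ctnnb1 measured 16555, 22931, 26597 and 20073 scaled reads in YT-ECKO libraries 1 to 4, against 22867, 24730.4, 21514 and 22288 in WT libraries 1 to 4. The means were 21539 ± 4263 in YT-ECKO and 22850.1 ± 1371 in WT (SD, n = 4 each). The estimate on the log2 scale was -0.10 ± 0.21 (SE), with a 95% interval of -0.54 to 0.33 (adjusted p = 0.991 by limma).

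**Figure D2:**
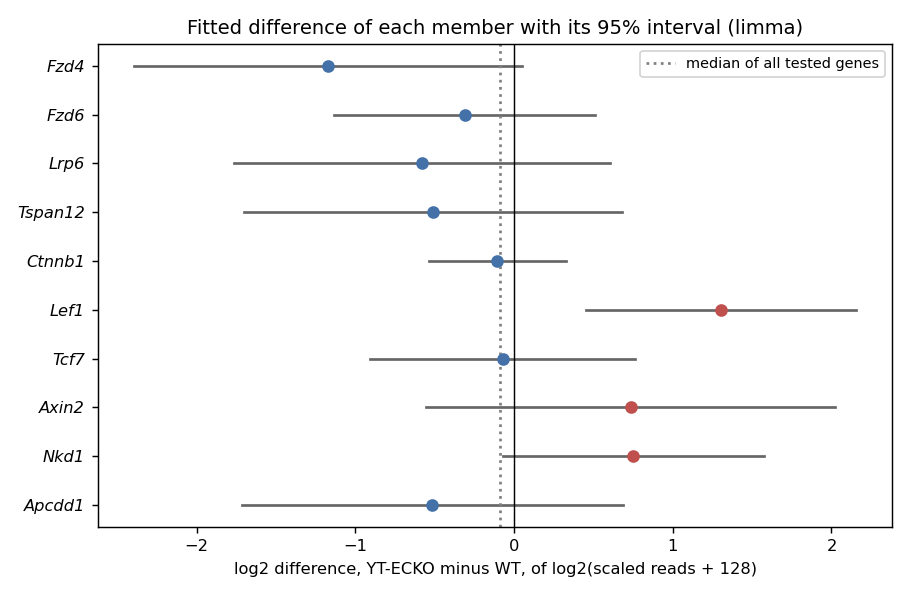
Log2 difference of each member (YT-ECKO minus WT, with the pseudocount) with its 95% interval from limma; the dotted line is the median of all tested genes, -0.09. The interval of Lef1, from 0.45 to 2.16, is the only one of the 10 that leaves out 0, and that of Ctnnb1 is the narrowest.

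Counted over the 10 members, 0 passed the adjusted threshold, against 0.0345% of all tested genes (3 of 8706). At an unadjusted limma p under 0.05 there was 1 member, Lef1, against 5.47% of all tested genes (1.78% higher and 3.69% lower in YT-ECKO). No member had groups without overlap, against 3.4% of all tested genes (1.33% higher and 2.07% lower in YT-ECKO). In the fit over all libraries, 7 of the 10 had lower values in YT-ECKO, against 56.9% of all tested genes. The median log2 difference of the 10 was -0.21, against -0.09 over all tested genes. Of the 7, Tcf7 turned its sign under 7 of 20 alternative settings, and Fzd6 and Ctnnb1 each under 3 of 22. Leaving out 1 library separated the groups of 1 member in each of 4 cases: Fzd4 without YT-ECKO 1, Tspan12 without YT-ECKO 3, Lef1 without WT 1 and Lrp6 without WT 2.

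Levels of different genes were set side by side per kilobase of annotated exon. That scale assumes reads from the whole transcript, which the labels do not settle. If reads came only from transcript ends, dividing by length would place long genes too low, so the order holds for this scale only. Undivided, the mean of Lef1 lay above that of Nkd1 in YT-ECKO (3465 against 3221 scaled reads), but not in WT (1531 against 1997). Lrp6 then lay above Tspan12 in YT-ECKO (275 against 231) and in WT (510 against 333). The spreads of each pair overlapped. Axin2, at 271, had the lowest undivided mean in WT of the 8 members with a mean. Lrp6 and Apcdd1 have the longest annotated exon sequence of the members, at 13672 and 12884 bases. Per kilobase Ctnnb1 was highest, at 4149 ± 821 scaled reads per kilobase in YT-ECKO and 4401 ± 264 in WT (SD, n = 4 each). Fzd6 followed at 1131 ± 531 in YT-ECKO and 1268 ± 366 in WT. Nkd1 came next, at 707 ± 224 in YT-ECKO and 438 ± 233 in WT, ahead of Lef1 at 394 ± 103 in YT-ECKO and 174 ± 133 in WT. The spreads of Nkd1 and Lef1 overlapped in both groups, and those of Fzd6 and Nkd1 in YT-ECKO. In WT the spread of Lef1 also overlapped those of Axin2, Tspan12 and Lrp6. Axin2 (84.3 ± 49.5 in YT-ECKO and 49.2 ± 50.9 in WT) and Tspan12 (69.8 ± 58.2 in YT-ECKO and 101 ± 21.4 in WT) came after them and did not differ from each other beyond their spread. Lrp6 (20.1 ± 10.4 in YT-ECKO and 37.3 ± 21.1 in WT) and Apcdd1 (17.5 ± 12 in YT-ECKO and 26.4 ± 8.68 in WT) were the lowest of the 8 members with a mean, and their spreads overlapped. The spread of Tspan12 overlapped both of theirs in YT-ECKO, and that of Axin2 did so in WT. No mean is given for Fzd4 and Tcf7, which were listed at 0 in some libraries.

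The genes whose pattern over the 8 libraries was nearest to that of Lef1 were Ppt2, Nfat5, Clspn, Rnf187 and Uvrag. Nearness was the mean absolute difference of the log2 values, with the same pseudocount, after each gene was centred on its own mean, and it was 0.27 to 0.31 for these 5 against a median of 0.94 over 8358 genes. Ppt2, which encodes a lysosomal thioesterase, measured 2794, 4122, 3163 and 2309 scaled reads in YT-ECKO libraries 1 to 4, against 3397, 853, 983 and 796 in WT libraries 1 to 4. As with Lef1, WT 1 lay among the YT-ECKO libraries and the other WT libraries lay below them. Clspn and Uvrag stood at 178 scaled reads each in WT 1 and at 1.5 or 0 in the other WT libraries. These genes were picked for likeness to Lef1, so their difference between the groups is a description. None of the other 9 members was near Lef1, the nearest being Tcf7 at 0.75 (rank 1539 of 8358) and the farthest Fzd4 at 1.24 (rank 7357).

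**Figure D3:**
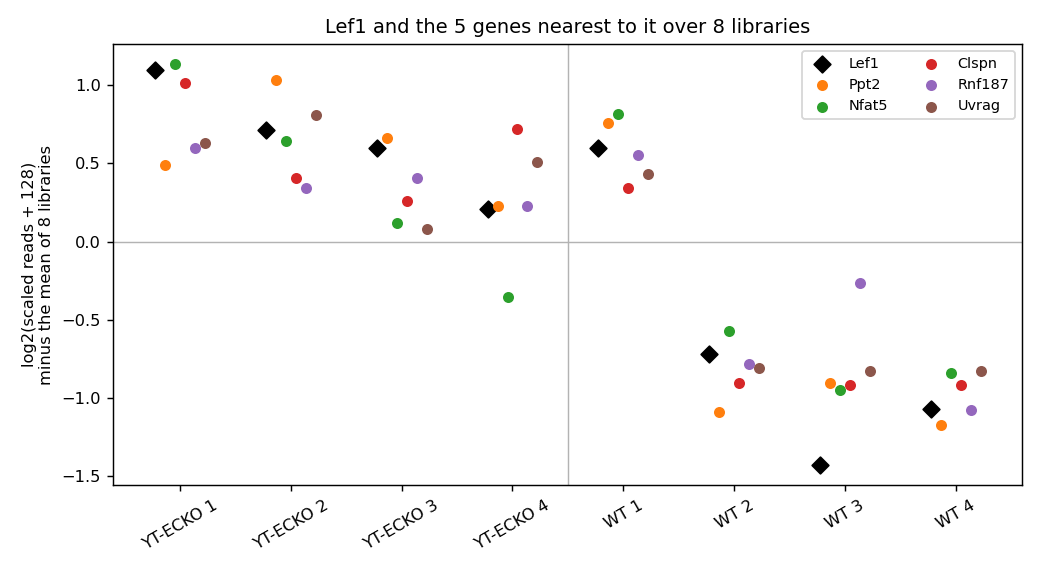
Log2 scaled reads, with the pseudocount, of Lef1 (diamonds) and its 5 nearest genes in each library, minus the gene's mean over the 8 libraries. In WT 1 all 6 genes lie above their mean, as most do in the YT-ECKO libraries, and in WT 2, WT 3 and WT 4 all lie below it.

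The rest of the pathway was read from a wider list of 118 genes, of which 63 were tested and 34 were listed at 0 in all 8 libraries. None of the 63 was called, against 0.0345% of all tested genes. Lower values in YT-ECKO were seen for 38 of the 63 and higher ones for 25, and the median of the log2 differences was -0.16. Groups without overlap were found for 5 of the 63, against 3.4% of all tested genes: Csnk1d, Pygo2 and Tle1 were higher and Nkd2 and Ccnd1 lower in every YT-ECKO library than in any WT library. Nkd2 reached 10 scaled reads in 0 YT-ECKO and 4 WT libraries, so passing the filter already fixed its lack of overlap.

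Most ligand genes gave no signal, and 17 of 24 ligand genes, Wnt7a and Wnt7b included, were listed at 0 in all 8 libraries. Wnt5a, a ligand known mainly for signalling without beta-catenin, was the one tested, at 0, 324, 465 and 188 scaled reads in YT-ECKO libraries 1 to 4, against 640.0, 51.6, 417 and 617 in WT libraries 1 to 4. Ndp, the gene of norrin, stood at 6.2 scaled reads in WT 3 and at 0 elsewhere. Wnt5b (281 scaled reads in WT 3), Wnt9b (157 in YT-ECKO 1) and Rspo1 (47.9 in WT 3) were above 0 in 1 library each, and Wnt4 in YT-ECKO 2 (8.9) and YT-ECKO 4 (238).

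Of 17 further receptor genes 6 were tested, and all 6 had lower values in YT-ECKO, as the 4 receptor members did. Among the 6, 3 (Fzd1, Fzd3 and Fzd5) reached 10 scaled reads in a single YT-ECKO library each and passed the filter mainly through WT, so the filter bears on their direction. Fzd1 measured 125, 0, 0 and 0 scaled reads in YT-ECKO libraries 1 to 4, against 123, 0, 145 and 173 in WT libraries 1 to 4. Lrp5, named after its values were seen, is the other co-receptor and stood at 67.5 to 460 scaled reads in YT-ECKO, against 180.1 to 381 in WT (log2 difference -0.36 ± 0.58, SE; adjusted p = 0.990 by limma). Adgra2, the gene of Gpr124, likewise named after its values were seen, measured 0, 14.2, 269 and 3.47 scaled reads in YT-ECKO libraries 1 to 4, against 0, 0, 17.3 and 317 in WT libraries 1 to 4. The log2 difference of Adgra2 was -0.04, and its sign turned under 8 of 17 alternative settings. Fzd4 reached 10 scaled reads in 2 YT-ECKO and 4 WT libraries, so the filter bears on its direction as well. Counting the 4 members, 10 of 10 tested receptors were lower, against 56.9% of all tested genes. That was 15 of 17 with no filter on low values, 9 of 10 with a pseudocount of 1, voom, array weights, the erythroid sum as a covariate or without YT-ECKO 4, 8 of 10 with the neuron sum as a covariate, 7 of 9 without YT-ECKO 1, the library with the fewest genes above 0, and 6 of 9 without YT-ECKO 1 and YT-ECKO 4. The part of the lower number of detected genes in YT-ECKO in these low-level differences was not tested.

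Transducers were split, 6 lower and 11 higher of 17 tested. Csnk1d, which encodes a casein kinase I isoform, measured 5785, 11577, 5231 and 5124 scaled reads in YT-ECKO libraries 1 to 4, against 3891, 3558, 3848 and 2884 in WT libraries 1 to 4, without overlap (log2 difference 0.86 ± 0.31, SE; adjusted p = 0.737 by limma). Jup encodes plakoglobin, a close relative of beta-catenin, and measured 7112, 6779.7, 7713 and 5673 in YT-ECKO libraries 1 to 4, against 3621, 2596, 6169.8 and 1699.6 in WT libraries 1 to 4. WT 3 alone reached the YT-ECKO range, and the log2 difference was 1.07 ± 0.34 (SE; adjusted p = 0.636 by limma). Apc, which encodes the tumour suppressor of the destruction complex, had a log2 difference of -0.91 ± 0.60 (SE; adjusted p = 0.980 by limma).

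Of 14 tested nuclear factors 8 were lower and 6 higher. Pygo2, which encodes a PHD-finger co-activator of beta-catenin, measured 2802, 2331, 2771 and 2786 scaled reads in YT-ECKO libraries 1 to 4, against 832, 1311.5, 636 and 2247 in WT libraries 1 to 4. The groups did not overlap, with WT 4 just below YT-ECKO 2, and the log2 difference was 1.15 ± 0.40 (SE; adjusted p = 0.698 by limma). Tle1, which encodes a Groucho co-repressor that binds TCF/LEF factors, stood at 3124 ± 613 scaled reads in YT-ECKO and 1715 ± 536 in WT (SD, n = 4 each), again without overlap (log2 difference 0.85 ± 0.36, SE; adjusted p = 0.861 by limma). Sox17, an endothelial transcription factor tied to the pathway, had a log2 difference of 0.49 ± 0.27 (SE; adjusted p = 0.928 by limma).

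Further inhibitors were mostly below detection, and the 5 tested of 20 had lower values in YT-ECKO. That was 9 of 11 with no filter on low values, 4 of 5 without YT-ECKO 1 or without YT-ECKO 1 and YT-ECKO 4, and 3 of 4 without WT 1 or without WT 3. All 5 reached 10 scaled reads in all 4 WT libraries and so passed the filter whatever their YT-ECKO values, while Nkd2 reached it in 0, Dkk2 in 1 and Frzb in 2 YT-ECKO libraries. For Nkd2, Dkk2 and Frzb the filter therefore bears on the direction. Nkd2, the paralog of Nkd1, was listed at 0 in all 4 YT-ECKO libraries and measured 383, 191, 51.1 and 226 scaled reads in WT libraries 1 to 4 (adjusted p = 0.675 by limma). Frzb, which encodes a secreted antagonist of Wnt ligands, measured 0, 53.2, 0 and 233 scaled reads in YT-ECKO libraries 1 to 4, against 146, 209, 709 and 623 in WT libraries 1 to 4 (adjusted p = 0.839 by limma). Dkk2, a ligand of LRP co-receptors, measured 1.60, 76.2, 0 and 0 in YT-ECKO libraries 1 to 4, against 144, 256, 44.2 and 81.6 in WT libraries 1 to 4 (adjusted p = 0.928 by limma).

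Genes that depend on beta-catenin in brain endothelium lay on both sides of 0, with 12 of 20 tested lower, against 56.9% of all tested genes, and a median log2 difference of -0.06. At an unadjusted limma p under 0.05, 3 of the 20 were lower and 0 higher, against 3.69% lower and 1.78% higher among all tested genes. Slc38a5, a glutamine transporter gene, measured 2003, 1166.5, 2807 and 4814 scaled reads in YT-ECKO libraries 1 to 4, against 3875, 4797, 6191 and 7378 in WT libraries 1 to 4. YT-ECKO 4 lay among the WT libraries and the other 3 below them (log2 difference -1.14 ± 0.37, SE; adjusted p = 0.675 by limma). Slco1a4, an organic anion transporter gene, differed by -0.78 ± 0.36 (SE; adjusted p = 0.882 by limma). Slc2a1, Cldn5 and Ccnd1 were named after their values were seen. The glucose transporter gene Slc2a1 stood at 4619 ± 455 scaled reads in YT-ECKO and 4455 ± 1087 in WT (SD, n = 4 each), with a 95% interval of the log2 difference from -0.54 to 0.69, and the tight junction gene Cldn5 had an interval from -0.37 to 0.53. Ccnd1, the cyclin D1 gene and a classical target in other cells, measured 9857, 7445, 10765 and 11214 scaled reads in YT-ECKO libraries 1 to 4, against 12220.4, 11331, 13522 and 13363 in WT libraries 1 to 4. Its groups did not overlap, by a narrow margin, and the log2 difference was -0.37 ± 0.24 (SE; adjusted p = 0.980 by limma).

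**Figure D4:**
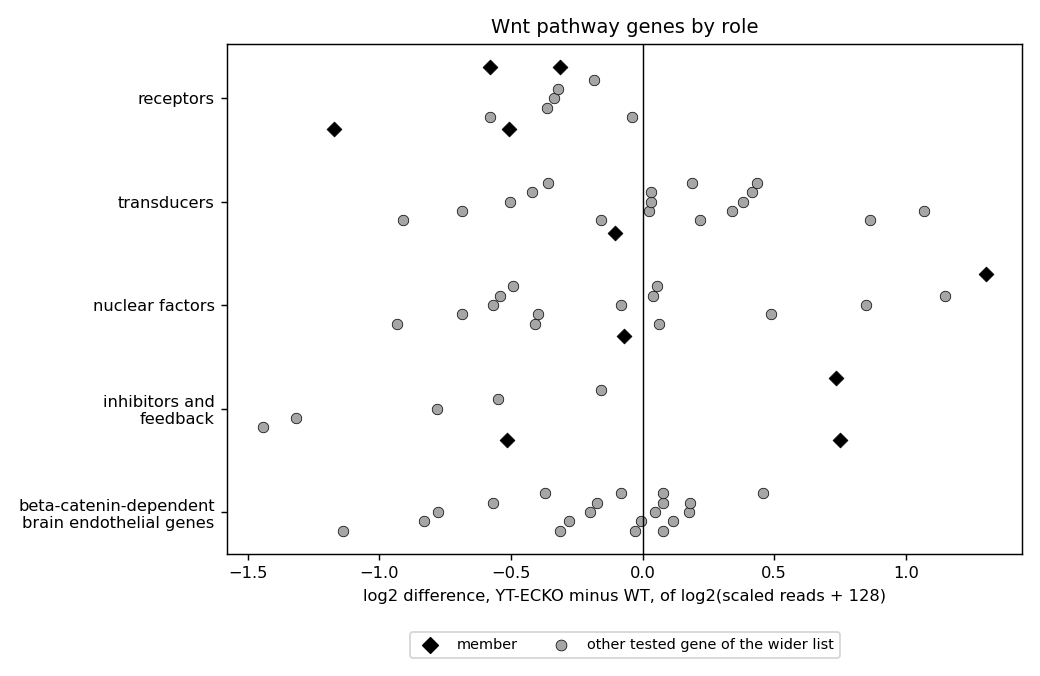
Log2 difference (YT-ECKO minus WT, with the pseudocount) of each tested gene, by role in the pathway, with members as black diamonds and other genes of the wider list as grey circles; height within a row has no meaning. In this fit the 10 tested receptors lie left of 0 (6 of 9 do without YT-ECKO 1 and YT-ECKO 4), transducers, nuclear factors and barrier genes lie on both sides, and Lef1, at 1.31, is farthest to the right.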

How the data were processed

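Per the labels' protocols, RNA of sorted brain endothelial cells was extracted with Trizol and entered a Lexogen Quant-Seq library kit. Bowtie2 and edgeR were used with mm10, per the submitters' processing notes; their versions, the counting tool and the strand setting are not stated in the labels. Each library has its own table of log2 values, deposited by the authors. Returned to the linear scale (a listed 0 stays 0), values under 12 lay within 0.1 of whole multiples of a step for 87.9% to 100% of genes, so they were read as log2 of scaled read counts.

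A single limma model (version 3.58.1, R 4.3.3) was fitted to the 8706 genes that reached 10 scaled reads in 4 or more libraries, with trended and robust variance moderation and no covariate, after a pseudocount of 2 to the power of 7 was added and the log2 taken. Adjusted p-values are Benjamini-Hochberg over all tested genes, with 0.05 as threshold. Fold changes on this scale understate low genes. Implied reads are values divided by the step; they are not single molecules. The script was tested on simulated data. Alternatives were other pseudocounts and scalings, other filters, voom, array weights, the Rn45s share or the replicate number as a term, and leaving out each library.

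Members, lists and tests were chosen with earlier results of these data known. Named genes were the members, Yap1 and Wwtr1, the 3 smallest p-values of each role, 6 ligands and the 5 genes nearest to Lef1; 1 gene under this rule is not reported here. Marker lists of 8 other cell types were summed. Sums ranged in YT-ECKO and in WT from 156 to 1129.6 and 352 to 1593 scaled reads (mural), 0 to 179 and 74.6 to 266 (fibroblast), 384 to 857 and 581 to 745 (astrocyte), 0 to 1182 and 0 to 255 (oligodendrocyte lineage), 0 to 130 and 0 to 161 (microglia), and 13411 to 48278 and 13236 to 37584 (erythroid). Coordinates are from GENCODE M21 (GRCm38, the build also called mm10).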

Additional observations from a re-analysis of the deposited data

Results flagged for a closer look

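Some values lay far from the other 3 of their group, by the gap to the nearest library divided by the group's range with 0.829 as the limit for 4 values. About 1 in 20 groups pass that limit by chance where values are normally distributed, which does not hold for linear reads with many values at 0. The number past it is therefore not set against that rate. Of 80 groups looked at (40 named genes in 2 genotypes), 14 had such a library. Among the members this was Fzd6 in YT-ECKO 1 (1637 scaled reads). In the wider list it was Fzd1 in YT-ECKO 1 (125 scaled reads), Fzd5, Fzd3 and Dkk2 in YT-ECKO 2 (67.4, 165 and 76.2), and Adgra2 in YT-ECKO 3 (269) and in WT 4 (317). In each of these 6 groups of the wider list the other 3 libraries were at or near 0. Higher values stood out for Csnk1d in YT-ECKO 2 (11577 scaled reads) and Slc2a1 in YT-ECKO 1 (5293), and a lower one for Pygo2 in YT-ECKO 2 (2331). The remaining 4 were Ppt2 (3397), Nfat5 (1969), Clspn (178) and Uvrag (178), all high in WT 1, and these genes had been picked for a pattern like that of Lef1, which was high in WT 1 as well.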

How the results depend on the processing

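Lef1 kept a higher value in YT-ECKO and no call under all 22 alternatives, with a log2 difference of 1.05 (without WT 3) to 1.72 (without WT 1) over the 8 left-out libraries and adjusted p-values of 0.298 to 0.996 over all alternatives. No member was called under any alternative. The number of genes called, 3, became 0 with a pseudocount of 1, with no filter on low values, with only genes averaging 1000 scaled reads or more and with voom on rebuilt reads (419, 600, 107 and 522 genes at an unadjusted limma p under 0.05). It was 0 to 6 with 1 library left out (1 without WT 1, 0 without WT 2, 6 without YT-ECKO 3), 5 with the replicate number as a block, and 1 with the neuron or the erythroid sum as a covariate, the last 2 settings being chosen after seeing the data, as was leaving out YT-ECKO 1 and YT-ECKO 4 together. Members without overlap numbered 0 to 1 with 1 library left out, and 1 (Fzd4) without YT-ECKO 1 and YT-ECKO 4. Lower genes of the wider list numbered 29 to 38 with 1 library left out, and 16 among genes averaging 1000 or more, where fewer are tested. Over all tested genes the median shifted to -0.28 with a pseudocount of 1, -0.20 with 16 and -0.25 with voom.

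The sign turned in 30 of 815 fits of the 39 other named genes, none of it for a called gene. Tcf7 was 1.71 with a pseudocount of 1, 0.25 with 16, 1.78 with voom, 0.086 with the erythroid covariate and -0.26 to 0.20 with 1 library left out. Adgra2 was 0.41 with a pseudocount of 1, 1.72 with voom, 0.17 with array weights, 0.31 with the neuron and 0.013 with the erythroid covariate, and -0.21 to 0.11 with 1 library left out. With 1 library left out, Fzd6 ranged from -0.49 to 0.18, Ctnnb1 from -0.21 to 0.014, Tcf7l2 from -1.47 to 0.11, Slc2a1 from -0.033 to 0.18 and Cldn5 from -0.012 to 0.17. With the neuron covariate Fzd6 was 0.065, Ctnnb1 0.029 and Wnt5a 0.0013, and with the erythroid covariate Slc2a1 was -0.041. Without YT-ECKO 1 and YT-ECKO 4, Fzd6 was 0.15, Ctnnb1 0.11, Wnt5a 0.091, Tcf7l1 0.077, Adgra2 0.40 and Cldn5 -0.054. Wwtr1 lost its call under 11 of 22 alternatives and kept its sign; without WT 1, WT 2 or YT-ECKO 4 its adjusted p was 0.0755, 0.0580 and 0.0677. The causes were not tested.

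Libraries of the same number did not deviate together (correlations of -0.03, -0.04, 0.07 and 0.08 across genes for numbers 1 to 4), not every library correlated best with its own number, and the block groups libraries that share only a number. With the replicate block the log2 difference of Lef1 was 1.31 ± 0.37 (SE; limma adjusted p = 0.473). Counting limits the low members: Fzd4, Tcf7 and Apcdd1 rested on fewer than 12 implied reads in at least 1 library.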
